A study of Mus musculus with 6 samples.

Results

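Copy number is described here for 10 mouse genes that brake or route NF-kB signalling. They are the brakes Tnfaip3, Cyld and Tnip1, the adaptors Traf1, Traf3, Traf5 and Traf6, the cellular inhibitors of apoptosis Birc2 and Birc3, and the kinase Map3k7. The members were taken by name: every non-control probe that the denser array design assigns to one of these genes was used, and the sparser arrays were joined through the probe names. All 10 genes had a probe, of 24702 gene names that lie on 1 autosome, and together they had 57 probes, 21 of them also on the sparser design.

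DNA of 5 malignant mesotheliomas, which arise from the lining of body cavities, was hybridised to copy number arrays, where tumour DNA labelled with Cy5 and C57BL/6J DNA labelled with Cy3 compete for the same probes. The tumours ARF-129, ARF-112 and ARF-104 were read on the denser design and ARF-110 on the sparser design. ARF-128 was counted as read on both and is represented by its denser array unless stated. That denser array is titled ARF-128PlusMinus, and taking it as the same tumour as ARF-128 is a reading of the labels. The series describes 4 mice of genotype Arf (+/-), its title calls the tumours asbestos-induced, and the labels name primary mesothelioma cells for every tumour but ARF-104. Which of the 5 tumours lies outside the 4 described mice, and the age and strain background of the mice, are not given in the sources used here. Arf, a protein encoded at the Cdkn2a locus, protects p53 from degradation, and the C57BL/6J DNA came from a commercial source. Normal DNA of the tumour-bearing mice was not analysed here, so an inherited difference from C57BL/6J and a change in the tumour cannot be told apart.

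When TNF binds its receptor, TRAF adaptors and cellular IAPs gather there and build ubiquitin chains. Map3k7, also called TAK1, is activated on these chains and switches on the IkB kinases, which free NF-kB to enter the nucleus. Tnfaip3 and Cyld take ubiquitin chains apart, and Tnip1 binds both ubiquitin and Tnfaip3, so these 3 limit the signal. Traf3, together with Birc2 and Birc3, keeps the kinase Map3k14 low and thereby holds back the non-canonical branch of the pathway.

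Every value is a log2 ratio of tumour over C57BL/6J DNA, centred on the autosomal median of its array. A copy gained by every diploid cell would give 0.58 and a copy lost -1. A gene's value is the mean of its own probes, its chromosome is the median of that chromosome's other probes, and its flanks are the median of the other probes within 1 Mb on either side. The sparser design, which read ARF-110, held fewer probes of every member but Tnfaip3, so means over the 5 tumours pool unlike sets of probes. Positions are mm7, as stated in the header of a denser-design file.

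Some probes of the same gene stood apart in each tumour read on the denser design. The lowest and the highest probe of 4 genes, by mean over those arrays, are therefore shown first, as the deposited file gives them. Probes are numbered along the chromosome, and the strand of a probe and its place in an exon or intron were not analysed here.
Tnip1 probe 6 (chr11:54897972-54898031): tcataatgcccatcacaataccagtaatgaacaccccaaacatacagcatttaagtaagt
Tnip1 probe 7 (chr11:54905806-54905865): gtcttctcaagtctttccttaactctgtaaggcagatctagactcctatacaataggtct
Cyld probe 2 (chr8:87296311-87296370): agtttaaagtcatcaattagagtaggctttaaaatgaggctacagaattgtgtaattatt
Cyld probe 5 (chr8:87315416-87315475): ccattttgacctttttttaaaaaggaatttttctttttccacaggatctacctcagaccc
Traf1 probe 2 (chr2:34961538-34961597): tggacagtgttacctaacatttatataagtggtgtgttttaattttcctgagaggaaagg
Traf1 probe 3 (chr2:34966497-34966550): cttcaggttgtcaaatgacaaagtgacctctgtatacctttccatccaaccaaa
Tnfaip3 probe 1 (chr10:18725557-18725616): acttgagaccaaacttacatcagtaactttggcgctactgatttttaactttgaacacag
Tnfaip3 probe 2 (chr10:18733337-18733394): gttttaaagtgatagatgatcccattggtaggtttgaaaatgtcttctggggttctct

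The arrays differed in noise. The noise SD of a probe was estimated from the median absolute deviation of differences between neighbouring probes, which gives outlying probes little weight. It ranged from 0.15 in ARF-110 to 0.49 in ARF-129, and was 0.77 on the denser and 0.43 on the sparser array of ARF-128. All member spots were well above background in both channels on all 6 arrays, and none was marked as an outlier or saturated. Cdkn2a, the locus of Arf, was read as a check of the labels and stood at -0.64 in ARF-129 and -1.08 in ARF-128, at -1.10 in ARF-112, -0.14 in ARF-110 and -3.30 in ARF-104 (limma adjusted p = 0.0584). ARF-110 was near 0 and ARF-104 far below the value of a lost copy, so the tumours did not evenly show the ratio of a missing Arf copy, and whether these probes lie in the inactivated part of Arf was not analysed here. The number of tumours limits the precision of every mean, and as the labels do not say that each tumour came from its own animal, p-values measure the spread between these tumours only. The arrays fall into 3 scan days, with ARF-129, ARF-112 and ARF-104 sharing a day.

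Tnfaip3, a ubiquitin-editing enzyme that shuts down signalling after TNF, lies on chromosome 10 (chr10:18725557-18733394) and was read by 2 probes on both designs. It stood at -0.57 in ARF-129 and -0.05 in ARF-128, at -0.57 in ARF-112, 0.07 in ARF-110 and -0.30 in ARF-104. It was below its chromosome in all 5 tumours, most in ARF-129 (-0.57) and ARF-112 (-0.50) and least in ARF-128 (-0.04). The mean difference from the chromosome was -0.31 ± 0.22 (SD, n = 5), with a limma adjusted p of 0.0659. With normexp, a model-based background correction applied to the raw intensities with an offset of 50 added to both channels, the mean was only -0.08 (limma adjusted p = 0.493). Such an offset draws ratios toward 0, and its part in this and the other normexp values was not tested. The sparser array of ARF-128 gave -0.41 for the gene. With that array the mean difference was -0.38 (limma adjusted p = 0.0139), with the mean of both arrays -0.34 (0.0169) and without ARF-128 -0.38 (0.0403), and over all alternatives the adjusted p ranged from 0.0139 to 0.493. The 2 probes stood at different levels, but both were lower in ARF-129 and ARF-112 than in ARF-128 and ARF-104. Probe 1 stood at -1.01, -0.32, -0.85 and -0.52 relative to the chromosome in ARF-129, ARF-128, ARF-112 and ARF-104, while probe 2, 7.78 kb away, stood at -0.14, 0.25, -0.16 and 0.05. The low value of the gene therefore came mainly from probe 1. That probe was also the lower one in ARF-110 (-0.34 against -0.06) and on the sparser ARF-128 array (-0.78 against -0.0025).

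Cyld, a deubiquitinase and tumour suppressor, lies on chromosome 8 (chr8:87290848-87339002) and was read by 8 probes, 2 of them on the sparser design. It stood at 0.35 in ARF-129 and 0.24 in ARF-128, at -0.24 in ARF-112, -0.07 in ARF-110 and 0.32 in ARF-104. The medians of the rest of chromosome 8 were 0.62, 0.47 and 0.45 in ARF-129, ARF-128 and ARF-104, against -0.05 and -0.06 in ARF-112 and ARF-110. Cyld was thus high in the tumours where its chromosome was high, but lower than the chromosome in all 5. Relative to its flanks Cyld stood at -0.37 in ARF-129 and -0.33 in ARF-128, at -0.18 in ARF-112, -0.08 in ARF-110 and -0.19 in ARF-104. The mean difference from the flanks was -0.23 ± 0.12 (SD, n = 5; 95% interval -0.37 to -0.09), with a limma adjusted p of 0.0471, and that from the whole chromosome -0.17 ± 0.11 (limma adjusted p = 0.106). The difference from the flanks did not hold under several settings. On the 2 probes that both designs hold it turned to 0.26 (limma adjusted p = 0.0898), and with normexp background it was -0.09 (0.0753). Without ARF-104 the adjusted p was 0.141, without ARF-112 0.147, without ARF-128 0.0546 and without ARF-129 0.162, with the scan day fitted as a random block it was 0.393, and over all alternatives it ranged from 0.0223 to 0.393.

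Probe by probe, Cyld held 4 lower probes and 1 higher. Probe 5 stood at -0.89, -1.43, -0.62 and -0.78 relative to the chromosome in ARF-129, ARF-128, ARF-112 and ARF-104. Probe 2 stood at 0.38, 0.91, 0.23 and 0.52 in the same tumours, and the 2 probes at the far end of the gene stayed between 0.03 and 0.22. The sparser design did not repeat the height of probe 2. There it read -0.13 for tumour ARF-110, and ARF-128 fell from 0.91 on its denser array to -0.0050. When each probe was set to its own mean over the 4 denser arrays, a description added after the values were seen, Cyld stood at 0.18 in ARF-129 and 0.07 in ARF-128, at -0.40 in ARF-112 and 0.15 in ARF-104. For the gene this equals its value minus its own mean over those arrays. The median of its flanks, minus the mean of that median over the same arrays, stood at 0.28, 0.13, -0.49 and 0.07. Gene and flanks were both lowest in ARF-112 and highest in ARF-129.

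Tnip1, the ubiquitin-binding partner of Tnfaip3, lies on chromosome 11 (chr11:54867522-54916170) and was read by 9 probes, 2 of them in ARF-110. It stood at 0.10 in ARF-129 and 0.03 in ARF-128, at 0.25 in ARF-112, -0.07 in ARF-110 and 0.06 in ARF-104, and its chromosome at 0.06, -0.05, 0.19, -0.0011 and -0.03. The gene followed its chromosome within 0.09 in each of these tumours, with a mean difference of 0.04 ± 0.06 (SD, n = 5; limma adjusted p = 0.643). On the sparser ARF-128 array, with 2 probes, Tnip1 stood at -0.46.

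**Figure D1:**
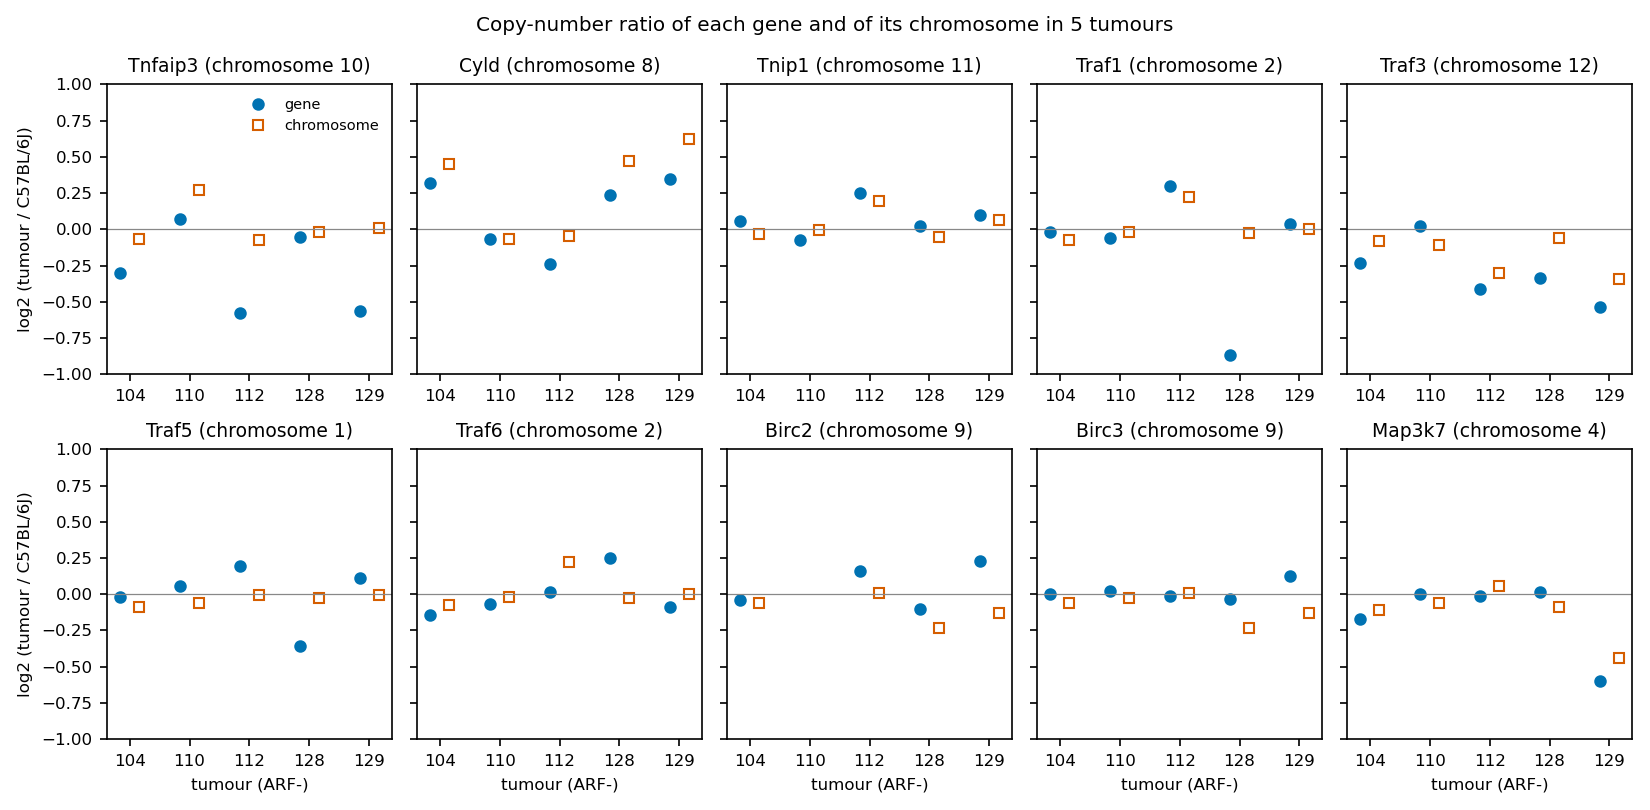
Log2 ratio of each gene (filled circles, left in each pair) and the median of the rest of its chromosome (open squares, right) in the 5 tumours, named by number. Cyld is high where chromosome 8 is high (ARF-129, ARF-128, ARF-104), Map3k7 is low with chromosome 4 in ARF-129, and Traf1 stands at -0.86 in ARF-128, where chromosome 2 is near 0; Birc2 has no value in ARF-110.

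Among the TRAF adaptors, Traf3 had the lowest mean ratio to C57BL/6J, while relative to the chromosome Traf1 was slightly below it, and Traf1 varied most between tumours. Traf3, which restrains the non-canonical branch, lies on chromosome 12 (chr12:108742305-108783432) and was read by 9 probes. It stood at -0.53 in ARF-129 and -0.34 in ARF-128, at -0.41 in ARF-112, 0.02 in ARF-110 and -0.23 in ARF-104. The chromosome itself was low in ARF-129 (-0.34) and ARF-112 (-0.30), so the mean difference of the gene from it was only -0.12 ± 0.15 (SD, n = 5; limma adjusted p = 0.264). Relative to its flanks Traf3 stood between -0.37 and -0.18 in 4 tumours and at 0.0054 in ARF-110, where it was read by 2 probes. The lowest value, that of ARF-129, compares a gene in a segment of -0.32 with flanks at -0.16. That segment ended at 109281002, inside the 1 Mb flank, so part of the flanks lay outside it. The ARF-110 segment began at 108439660, also inside the flank. In these tumours the difference from the flanks cannot be read as a change of the gene alone. The mean difference from the flanks was -0.21 ± 0.14 (SD, n = 5; limma adjusted p = 0.0637). With narrower flanks the difference was -0.18 (limma adjusted p = 0.0808) and with normexp background -0.04 (0.380). The p was 0.0216 without ARF-110 and 0.0377 on the probes that both designs hold, and ranged from 0.0216 to 0.445 over all alternatives. On the sparser ARF-128 array Traf3 stood at 0.13. A single probe of the 9 was called lower, probe 4, at -1.09, -1.27, -0.85 and -1.03 relative to the chromosome in ARF-129, ARF-128, ARF-112 and ARF-104, while the other 8 had means between -0.47 and 0.30.

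Traf1, an adaptor that is itself induced by NF-kB, lies on chromosome 2 (chr2:34954664-34966550) and was read by 3 probes. It stood at 0.03 in ARF-129 and -0.86 in ARF-128, at 0.30 in ARF-112, -0.06 in ARF-110 and -0.02 in ARF-104. The sparser ARF-128 array, with 2 of the probes, gave -0.66, so both arrays of that tumour were low, while chromosome 2 stood at -0.03 and -0.05 on them. Relative to its flanks in ARF-128, Traf1 stood at -0.84 on the denser array and at -0.67 on the sparser one. The 3 probes of the denser array stood at -0.0093, -2.35 and -0.15 relative to the chromosome, so the low value came mainly from probe 2. On the sparser array probes 1 and 2 stood at -0.51 and -0.72. Probe 2 was also low in ARF-129 (-0.75), ARF-112 (-0.55) and ARF-104 (-0.55), where probes 1 and 3 lay between 0.30 and 0.49. Over the tumours Traf1 differed from its chromosome by -0.14 ± 0.39 (SD, n = 5; limma adjusted p = 0.497), and by 0.03 without ARF-128.

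Traf5, an adaptor of several TNF receptor family members, lies on chromosome 1 (chr1:191550001-191641634) and was read by 8 probes, 2 of them in ARF-110. It stood at 0.11 in ARF-129 and -0.36 in ARF-128, at 0.19 in ARF-112, 0.05 in ARF-110 and -0.02 in ARF-104. The sparser ARF-128 array, with probes 5 and 8 only, gave 0.27. The mean of these 2 probes relative to the chromosome was 0.35 on the denser and 0.34 on the sparser array. The low value of ARF-128 came from probes that the sparser design lacks. Over the tumours Traf5 differed from its chromosome by 0.03 ± 0.21 (SD, n = 5; limma adjusted p = 0.803). Its last 3 probes differed sharply: probe 6 stood at -1.37, -1.78, -0.56 and -0.76 in ARF-129, ARF-128, ARF-112 and ARF-104, probe 7 at 1.01, 0.14, 0.68 and 0.76, and probe 8 at 0.50, 0.82, 0.35 and 0.50.

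Traf6, the adaptor of Toll-like and interleukin-1 receptors, lies farther along chromosome 2 (chr2:101530473-101551079) and was read by 5 probes. It stood at -0.09 in ARF-129 and 0.25 in ARF-128, at 0.02 in ARF-112, -0.06 in ARF-110 and -0.14 in ARF-104, and the sparser ARF-128 array gave -0.11. Its mean difference from the chromosome was -0.03 ± 0.18 (SD, n = 5; limma adjusted p = 0.835). Probe 3 was higher (0.52, 1.46, 0.32 and 0.40 in ARF-129, ARF-128, ARF-112 and ARF-104) and probe 5 lower (between -1.04 and -0.69).

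The 2 cellular IAP genes lie close together near the start of chromosome 9, Birc2 at chr9:7850844-7856428 and Birc3 at chr9:7875026-7892764. Birc2 was read by 2 probes of the denser design only and stood at 0.23 in ARF-129 and -0.10 in ARF-128, at 0.16 in ARF-112 and -0.04 in ARF-104. Birc3 was read by 4 probes and stood at 0.12 in ARF-129 and -0.03 in ARF-128, at -0.0090 in ARF-112, 0.02 in ARF-110 and 0.00049 in ARF-104. Both genes stayed between -0.10 and 0.23 in all tumours with a value. The chromosome median was -0.23 in ARF-128 and -0.13 in ARF-129, and in those tumours Birc3 was above it by 0.20 and 0.25 and Birc2 by 0.13 and 0.36. The segment that holds both genes ended at 82109313 in ARF-128 and at 41503118 in ARF-129, with means of -0.04 and -0.03, so the low part of the chromosome lay beyond them. Against their flanks the mean differences were 0.07 ± 0.14 for Birc2 (SD, n = 4; limma adjusted p = 0.482, fitted without ARF-110) and 0.04 ± 0.07 for Birc3 (SD, n = 5; limma adjusted p = 0.585). Against the chromosome they were 0.16 ± 0.14 (limma adjusted p = 0.169) and 0.11 ± 0.11 (0.255).

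Map3k7, the kinase that links the receptor complexes to the IkB kinases, lies on chromosome 4 (chr4:32251111-32296430) and was read by 7 probes, 2 of them in ARF-110. It stood at -0.60 in ARF-129 and 0.02 in ARF-128, at -0.01 in ARF-112, -0.0019 in ARF-110 and -0.17 in ARF-104. ARF-129 stood apart from the other tumours, and its chromosome 4 (-0.44) and the flanks of the gene (-0.45) were low as well. The mean difference from the chromosome was -0.03 ± 0.11 (SD, n = 5; limma adjusted p = 0.773). With each probe set to its own mean over the 4 denser arrays, Map3k7 stood at -0.41, 0.21, 0.18 and 0.02 in ARF-129, ARF-128, ARF-112 and ARF-104. The median of its flanks, minus the mean of that median over the same arrays, stood at -0.35, 0.04, 0.27 and 0.05.

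**Figure D2:**
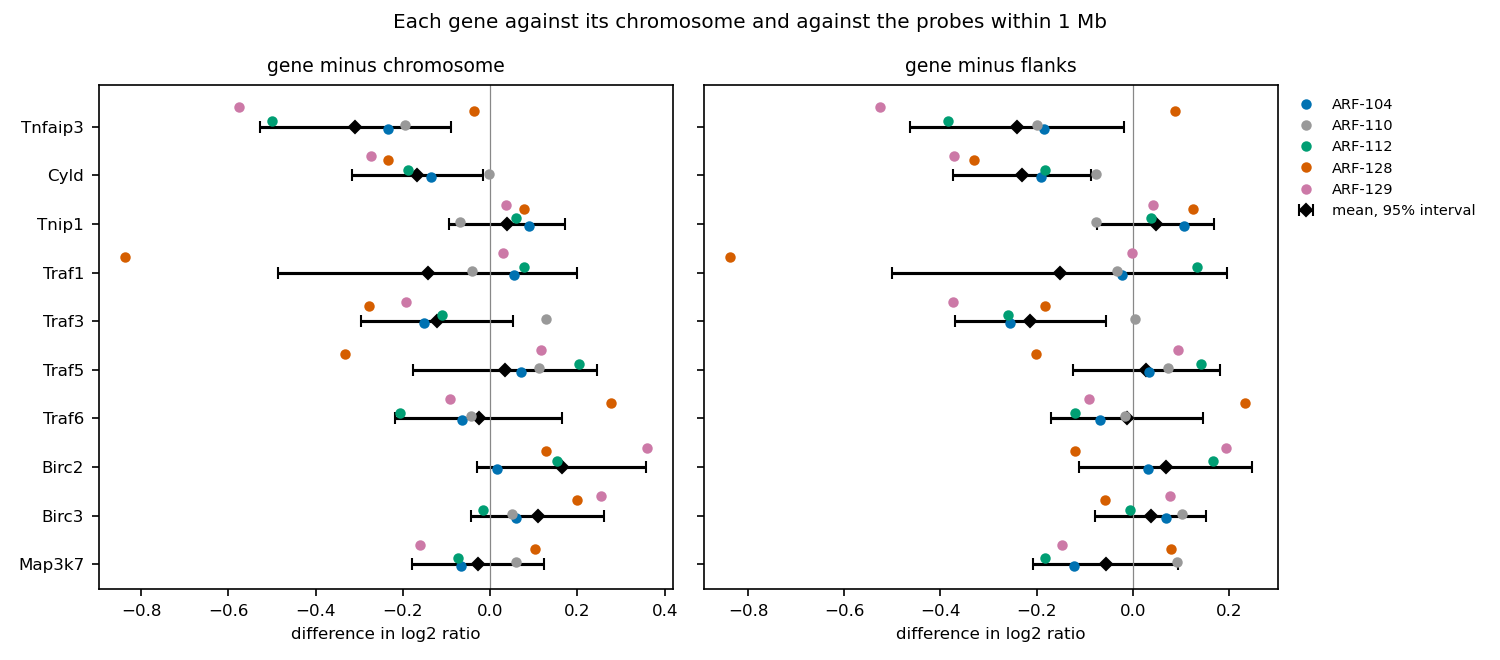
Difference in log2 ratio between each gene and the median of its chromosome (left) and between each gene and the probes within 1 Mb (right). Coloured points are tumours and black diamonds are means with their 95% interval from limma; the interval of Cyld minus flanks runs from -0.37 to -0.09, and Traf1 in ARF-128 lies at -0.84 in both panels.

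Set against all genes, the members called were few, and with 9 members their number was near the background share in each of 3 comparisons. Against the chromosome, 0 of the 9 members with a value in every tumour passed a limma adjusted p of 0.05, beside 12.7% of 19903 genes, and 2 passed unadjusted (Tnfaip3 and Cyld, both lower), as did 37.0% of all genes. Against C57BL/6J itself, 0 of 9 passed by limma, beside 14.9% of 19903 genes, with Tnfaip3 (-0.28 ± 0.29, SD, n = 5) and Traf3 (-0.30 ± 0.21) below an unadjusted p of 0.05, as were 35.0% of all genes. Their limma adjusted p values were 0.134 and 0.0804. Against the flanks, 1 of 9 was called, Cyld, lower, beside 17.4% of 19605 genes in either direction and 10% lower. The median member difference was -0.03 from the chromosome and -0.06 from the flanks, and the median over all genes tested was -0.01 and -0.02. These calls across the genome rest on few arrays: without ARF-104, without ARF-112 or without ARF-129 limma called 0 genes in all 3 comparisons, with at least 4811 genes at an unadjusted p under 0.05. A random block for scan day left 0 genes called against the chromosome and the flanks (3163 and 2913 unadjusted) and 6 called against C57BL/6J. The correlation it fitted between arrays of a day was 0.77, 0.87 and 0.42 in that order. The other fits take the 5 tumours as independent, so their p-values leave this likeness out.

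The order of the members by mean ratio ran from Cyld (0.12) through Tnip1 (0.07), Birc2 (0.06), Birc3 (0.02), Traf5 (-0.0038), Traf6 (-0.0050), Traf1 (-0.12), Map3k7 (-0.15) and Tnfaip3 (-0.28) to Traf3 (-0.30). No neighbours in that order differed beyond their spread between tumours: the exact two-sided sign-flip permutation p of the 9 pairs ranged from 0.375 to 1, and each was 1 after Benjamini-Hochberg adjustment. With 5 tumours the smallest p this test allows is 0.0625.

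Segments, the stretches of constant ratio into which each chromosome was divided, were called neither gained nor lost for most pairs of member and tumour. A segment was called gained or lost at a mean of 0.25 or more in either direction. Of 50 pairs of member and tumour, 4 were gained (8%, beside 14.2% of all gene-by-tumour pairs) and 2 were lost (4%, beside 8.94%). Cyld lay in gained segments in ARF-129 (0.58), ARF-128 (0.44) and ARF-104 (0.45), which spanned 3011640 to 103187680, 3011640 to 127855653 and 67848397 to 127855653 of chromosome 8. Its segment was at -0.16 in ARF-112 and -0.01 in ARF-110. The fourth gain was that of Tnfaip3 in ARF-110 (0.27), in a long segment of chromosome 10, where the 2 probes of the gene itself stood at 0.07. The losses were both in ARF-129, Traf3 in a segment of -0.32 from 71269553 to 109281002 on chromosome 12 and Map3k7 in a segment of -0.56 from 3012291 to 40472778 on chromosome 4. Tnip1, Traf1, Traf5, Traf6, Birc2 and Birc3 were called neither gained nor lost in any tumour. A segment held at least 5 probes, so a change confined to a gene of 2 or 3 probes could not form a segment of its own. The shortest segment over a member held 89 probes, while no member had more than 9. Whether a change confined to any member would have been called was not tested, so these calls describe the stretch around a gene.

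The chromosomes behind these calls were tested across tumours. Chromosome 8 had a mean of 0.29 ± 0.32 (SD, n = 5; exact sign-flip permutation p = 0.25), chromosome 12 -0.18 ± 0.13 (0.0625), chromosome 4 -0.13 ± 0.19 (0.125) and chromosome 9 -0.09 ± 0.10 (0.125). Chromosomes 1, 2, 10 and 11 had means between -0.04 and 0.03. After Benjamini-Hochberg adjustment over the 8 chromosomes the smallest p was 0.25, and none could have passed 0.05 with 5 tumours.

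Within genes, some probes differed from their chromosome in the same direction in each tumour of the denser design, and others changed sign. Of the 57 member probes, 22 passed a limma adjusted p of 0.05 over the 4 denser arrays, 13 lower and 9 higher. These 22 kept their sign in the 4 tumours, as did 15 of the 35 probes not called. The call was made on these same 4 arrays and favours probes of 1 sign, so the shared sign is no separate support. The 22 called were 38.6% of the member probes, beside 35% of 219850 autosomal probes, with 18.6% lower and 16.4% higher. The share of members' probes was thus near that of the whole array. Cyld, Traf5, Traf6, Tnip1 and Map3k7 each held a lower and a higher probe, and Birc2 alone held no called probe. Tnip1 had the widest range of probe means, and Traf1 the largest SD between them (0.77). Tnip1 probe 6 stood at 1.20, 1.62, 1.06 and 1.04 in ARF-129, ARF-128, ARF-112 and ARF-104, and probe 7, the next one along, at -0.91, -1.25, -0.64 and -0.49. These are the first 2 sequences printed above, and they stood apart in the same order in each of the 4 tumours. In Map3k7, probe 2 stood at 0.51, 0.65, 0.55 and 0.55 and probe 3 at -0.91, -0.55, -0.75 and -0.47. In Birc3, probe 2 was higher (0.77, 0.76, 0.35 and 0.53) and the other 3 had means between -0.12 and 0.08.

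The SD between the probe means of a gene was 0.48 as a median over the members and 0.43 over all 16300 genes with at least 2 probes. The median SD of a member between the 4 tumours was 0.13, and for 9 of the 10 members it was below the SD between probes, Birc2 being the exception (0.14 against 0.13). A gene value averages up to 9 probes, which lowers its spread, so the 2 SDs are a description only. The median GC content was 36.7% in the lower member probes, 37.9% in the higher ones and 36.7% in those called neither, against 36.7% over all autosomal probes. No member probe shared a run of 20 bases with another probe of the design, but matches elsewhere in the genome were not analysed here. None held a site of AluI or RsaI, the enzymes that cut the DNA before labelling. Only 0.035% of all autosomal probes held one, so this is no trait of the members. After adjustment for the GC content of the probes, an alternative added after the values were seen, 14 member probes were lower and 9 higher. Without ARF-129 limma called 0 member probes and 1 of all probes, with 21 member probes at an unadjusted p under 0.05. Without ARF-104 it called 7 lower and 2 higher member probes, without ARF-112 7 and 2, and without ARF-128 17 and 17.

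**Figure D3:**
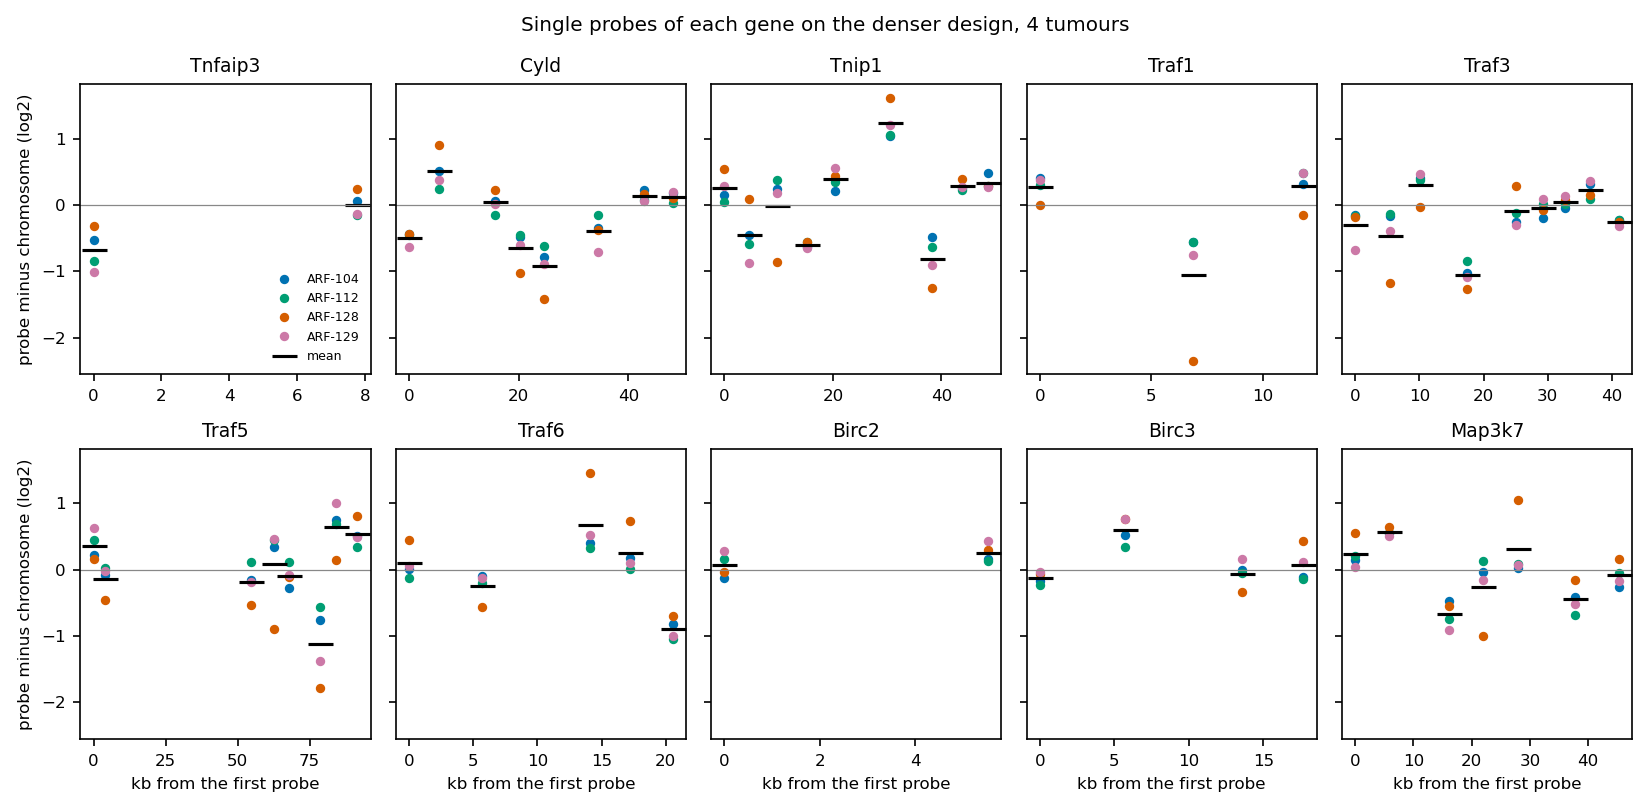
Log2 ratio of single probes relative to their chromosome against the distance in kb from the gene's first probe, for ARF-129, ARF-128, ARF-112 and ARF-104 on the denser design, with the mean as a black bar. Probes were called on these same 4 arrays, which favours a shared direction. Tnip1 probe 6 (mean 1.23) and probe 7 (mean -0.82) are the highest and the lowest of that gene, and ARF-128 is the most scattered.

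The 2 arrays of ARF-128 allow the member values to be read again on another design. Over the 21 member probes on both designs the ratios correlated at r = 0.60, and over all 40275 shared autosomal probes at r = 0.41. Between denser arrays of different tumours, r over all autosomal probes ran from 0.52 (ARF-112 and ARF-128) to 0.79 (ARF-104 and ARF-129). Those arrays share a design, which the 2 arrays of ARF-128 do not. Whether the 2 arrays hold the same tumour was not tested. Probes are not independent replicates, and both arrays are taken to share the tumour and the C57BL/6J DNA. On the shared probes alone, as means relative to the chromosome, Traf1 was low on both arrays (-1.18 denser, -0.62 sparser). Traf5 (0.35 and 0.34) and Birc3 (0.38 and 0.33) had like means on both, though some of their single probes differed. Traf5 probe 5 stood at -0.11 denser and 0.14 sparser and probe 8 at 0.82 and 0.55, and Birc3 probe 2 stood at 0.76 and 0.38. Cyld (0.57 and -0.25), Traf3 (-0.72 and 0.22), Traf6 (0.49 and -0.06) and Map3k7 (-0.42 and 0.16) had opposite signs on the arrays. Tnfaip3 (-0.04 and -0.39) and Tnip1 (-0.09 and -0.47) were lower on the sparser one. Each of these means rests on 2 to 4 probes.

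**Figure D4:**
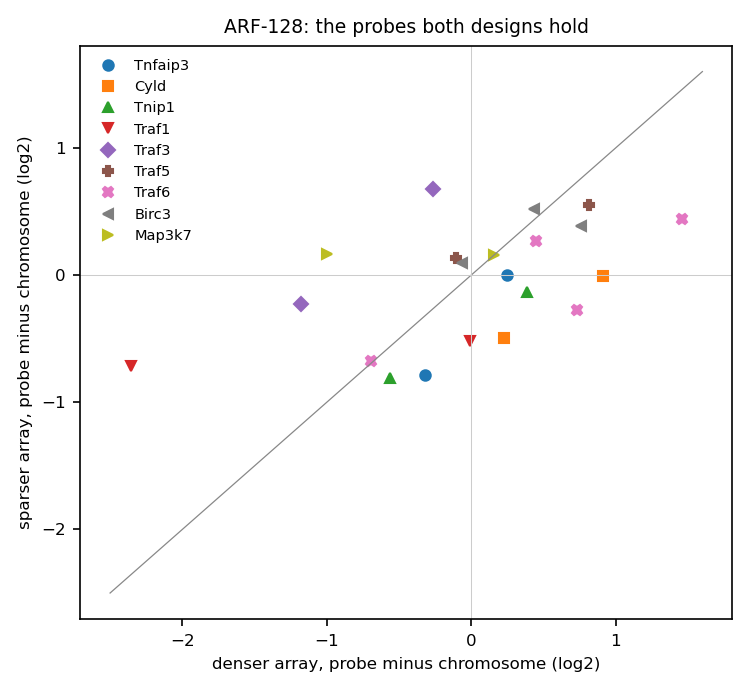
The 21 member probes that both designs hold, in ARF-128, as log2 ratio relative to the chromosome on the denser array (horizontal axis) and on the sparser array (vertical axis), with the line of equal values. Traf1 probe 2 lies at -2.35 on the denser and -0.72 on the sparser array, and a Traf3 probe lies at -0.26 and 0.67.

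Other genes of the same machinery were taken from a list of 21 partners, of which 16 had a probe and 15 had a value in every tumour. Against their chromosomes 2 of 15 were lower by limma (beside 6.5% of all genes) and 0 were higher (6 passed unadjusted in either direction, beside 37.0% of all genes), with a median difference of -0.0062. Traf4, a TRAF adaptor read by 2 probes, differed from chromosome 11 by -0.64 in ARF-129 and -0.66 in ARF-128, by -0.45 in ARF-112, -0.03 in ARF-110 and -0.47 in ARF-104 (mean -0.45 ± 0.25, SD, n = 5; limma adjusted p = 0.0412). Rnf11, a subunit of the Tnfaip3 complex read by 4 probes, was lower than chromosome 4 in every tumour, at -0.34, -0.29, -0.29, -0.22 and -0.15 in the same order (mean -0.26 ± 0.07, SD, n = 5; limma adjusted p = 0.0408). Sharpin, a subunit of the linear ubiquitin ligase, had the largest difference of all partners (0.59 ± 0.48, SD, n = 5; limma adjusted p = 0.0642), on 1 probe that stood at 1.38 in ARF-128. The 13 partners not called had means from -0.34 to 0.59. The number called higher was 3 with the sparser ARF-128 array or the mean of both, 4 without ARF-110 or on shared probes and 2 without ARF-128. It was 1 with normexp background, with the median of the probes and among genes of at least 3 probes. Normexp background, the median of the probes and the chromosome mean each left 1 called lower. The calls of Traf4 and Rnf11 were lost without ARF-104, without ARF-112, without ARF-129 and with scan day blocked, settings in which limma called 0 genes.

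The genes whose ratios over the 5 tumours were most like a member's, among genes of at least 3 probes on other chromosomes, were close to it by the choice among 10900 to 11385 genes. The root mean square difference was 0.04 between Tnfaip3 and Ctso, 0.06 between Traf3 and Tcea3, 0.02 between Birc3 and BC059179, and 0.09 between Traf1 and Cdv3, which stood farthest from its member of the 9 compared.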

How the data were processed

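Per the file headers, the authors ran Agilent Feature Extraction in version 8.5.1.1 for the sparser design, 9.5.3.1 for the denser ARF-128 array and 9.1.3.1 for the other arrays, which gave a red and a green processed intensity per spot after spatial detrending and a linear dye factor. The submitters' processing notes name the same program. The deposited scanner files also hold a log10 ratio and flags for dim, outlying and saturated spots, and the deposited value table holds log10 ratios for the sparser and log2 ratios for the denser design, uncentred.

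From these files, log2 of processed red over green was taken, control and outlier spots were dropped, repeats of a probe were averaged and the autosomal median of the array was subtracted. Tumour DNA carried Cy5 on every array, with no dye swap. Only 252 of 40284 shared probes have the same position text on both designs, so mm7 positions of the denser file were used. Intercepts were fitted with limma 3.58.1 (eBayes, Benjamini-Hochberg over all genes or probes), a test against 0 that does not include any spread of the C57BL/6J DNA, under R 4.3.3 with statmod 1.5.0. Segments of at least 5 probes came from the PELT search with squared error and a penalty of 5 log n. Other tools were Python 3.11.15 with pandas 2.3.3, numpy 2.4.6, numba 0.67.0, scipy 1.17.1 and matplotlib 3.10.9. The fits were tested on simulated data.

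Alternatives covered the background correction, the ratio, the array used for ARF-128, the probe summary, dim and outlier spots, flank width, scan day and each tumour left out. The text names every member, the partners called and the 2 with the largest difference, called neighbours, Cdkn2a, and single probes of members that were called or lowest or highest. Card15 and the 4 similar genes named were chosen after their values were seen. The members and lists were chosen with earlier results of these data known. The signal of the tumours' own normal DNA was not analysed here. Gene symbols are those of the array design.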

Additional observations from a re-analysis of the deposited data

Results flagged for a closer look

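Of 30 sets of values over the tumours (10 genes in 3 measures), 3 held a tumour whose distance from the nearest other, divided by the range, exceeded Dixon's 95% critical value, 0.71 for 5 values and the higher value for 4 in the 3 sets of Birc2. Chance gives about 1 such set in 20. All 3 concern the denser array of ARF-128, the noisiest one. Traf1 stood at -0.84 relative to chromosome 2 in ARF-128, against -0.04 to 0.08 in the other tumours. Relative to its flanks it also stood at -0.84, against -0.03 to 0.13 elsewhere, and the sparser array of ARF-128 gave -0.62 relative to the chromosome and -0.67 relative to the flanks. Traf5 stood at -0.33 relative to chromosome 1 in ARF-128, against 0.07 to 0.20 in the other tumours, and its sparser array, with 2 of the 8 probes, gave 0.34. On those 2 probes the denser array gave 0.35, and the low Traf5 value came from probes that the sparser array lacks. The part of array noise in either value was not tested.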

How the results depend on the processing

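No paired analysis was possible because the study has a single group. The call of Cyld against its flanks ended with normexp background (-0.09, limma adjusted p = 0.0753), the median of the probes (0.0664), flanks of 3 Mb (0.0694) and GC adjustment (0.0691, added later), each leaving 0 members called lower, and in the fit with a random block for scan day (0). ARF-128 on its sparser array or as the mean of both gave 1 member called lower against the chromosome and 2 against the flanks, and the sparser array and the probes shared by both designs each gave 1 against C57BL/6J. Left-out tumours gave 0 to 1 members called lower against the chromosome and C57BL/6J and 0 to 2 against the flanks, 0 to 17 lower and 0 to 17 higher member probes, and 1 to 121593 of all probes.

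Over all genes, the calls against the chromosome, C57BL/6J and the flanks numbered 2526, 2956 and 3406. They moved to 5232, 5187 and 5473 when ARF-128 was taken from its sparser array, 6003, 5432 and 7049 for the mean of both, 0, 6 and 0 with scan day as a block, and 0 to 6365, 0 to 5454 and 0 to 8138 with a tumour left out. Shared probes gave 4657 and 4663 against the chromosome and C57BL/6J, genes of at least 3 probes 1444 and segment means 819. Normexp shifted the split, to 689 lower and 1797 higher against 1293 and 1233 for the chromosome, 471 and 1737 against 1340 and 1616 for C57BL/6J, and 928 and 1845 against 1970 and 1436 for the flanks. Lost member pairs numbered 5 at a threshold of 0.15 and 1 at 0.35 or with a penalty of 2 log n.

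Chromosome means changed sign with a tumour left out for chromosomes 2 (-0.030 to 0.045), 10 (-0.036 to 0.050) and 11 (-0.0054 to 0.056). Over 476 values of single members under alternatives, 393 kept direction and call, 11 passed the threshold newly, 9 lost it and 63 changed sign. None of the values with a changed sign was called. Relative to the chromosome they were -0.071 and -0.016 for Tnip1 (sparser ARF-128 array, both arrays), -0.021 for Traf5, 0.028 for Traf6 and 0.014 for Map3k7 (scan day), 0.0086 for Traf3, 0.080 for Traf6 and 0.016 for Map3k7 (normexp), 0.16 for Traf1, 0.072 for Traf6 and 0.022 for Map3k7 (median), 0.24 for Cyld, 0.047 for Traf6 and -0.11 for Tnip1 (shared probes) and 0.021 for Map3k7 (chromosome mean). Against C57BL/6J they were 0.12 for Traf5 and -0.025 for Tnip1 (sparser ARF-128 array), 0.059 for Traf5 (both arrays), 0.019 for Traf6 (scan day), 0.055 for Traf5 and 0.085 for Traf6 (normexp), -0.044 for Birc3, 0.18 for Traf1, 0.033 for Traf5 and 0.093 for Traf6 (median), 0.19 for Traf5, 0.063 for Traf6 and -0.084 for Tnip1 (shared probes), and -0.0032 and -0.047 for Birc3 (GC adjustment, segment mean). Against the flanks they were -0.072 and -0.012 for Tnip1 (sparser ARF-128 array, both arrays), -0.0097 for Traf5, 0.037 for Traf6 and 0.0015 for Map3k7 (scan day), 0.091 for Traf6 and 0.015 for Map3k7 (normexp), -0.029 for Birc3, 0.15 for Traf1 and 0.086 for Traf6 (median), 0.26 for Cyld, 0.13 for Traf6, -0.11 for Tnip1 and 0.13 for Map3k7 (shared probes), -0.033 for Birc3 and -0.027 for Tnip1 (narrower flanks) and 0.020 for Traf6 (3 Mb). With a tumour left out, the range relative to the chromosome was -0.0087 to 0.13 for Traf5, -0.10 to 0.019 for Traf6, -0.20 to 0.030 for Traf1 and -0.060 to 0.0056 for Map3k7. Against C57BL/6J it was -0.053 to 0.085 for Traf5, -0.068 to 0.029 for Traf6, -0.23 to 0.063 for Traf1 and -0.0042 to 0.034 for Birc3, and against the flanks -0.074 to 0.014 for Traf6, -0.00037 to 0.085 for Traf5 and -0.22 to 0.019 for Traf1. The causes were not tested. Birc2, with no value in ARF-110, was fitted without that tumour alone. Signal over background was lowest on the denser ARF-128 array (4.14 in red), the array with the most probe noise.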

Other observations

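The nearest named genes on either side of the members numbered 19, and 14 of them could be fitted over the 5 tumours, where 1 was lower and 1 higher than its chromosome by limma, a share near that of all genes called (12.7%). Amn, which encodes a protein of cobalamin uptake and lies 5.79 kb beyond Traf3, stood at 0.17 in ARF-129 and 0.03 in ARF-128, at 0.21 in ARF-112, 0.14 in ARF-110 and 0.17 in ARF-104, and differed from chromosome 12 by a mean of 0.32 (limma adjusted p = 0.0488). Traf3 itself was below 0 in 4 of these tumours. The transcript 3322402L07Rik, read by 1 probe 16.2 kb before Traf5, stood at -0.69, -1.10, -0.86, -0.12 and -0.56 in ARF-129, ARF-128, ARF-112, ARF-110 and ARF-104 and differed from chromosome 1 by -0.63 (limma adjusted p = 0.0416). Both calls were lost without ARF-104, without ARF-112, without ARF-129 and with scan day blocked, where limma called 0 genes (at least 3163 genes had an unadjusted p under 0.05). Card15, now named Nod2, a sensor of bacterial peptidoglycan that lies 10.1 kb before Cyld, stood at 0.48, 0.27, -0.18, 0.0060 and 0.33 and, like Cyld, was high in ARF-129, ARF-128 and ARF-104 (mean difference from chromosome 8 -0.10, limma adjusted p = 0.259).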
